A study of Mus musculus with 8 samples.

Results

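The experiment described here is the knockdown of Zscan4 in mouse embryonic stem (ES) cells, set against a random short hairpin RNA (shRNA) control. Its members were chosen by their labels: 4 of the 8 mRNA-seq libraries of the series, 2 labelled KD_Zscan4 (genotype label Zscan4 knocked down) and 2 labelled KD_random_control (genotype label wild type). All 4 came from the J1 line, strain label 12910la, grown on gelatin with serum and leukaemia inhibitory factor (LIF). Both groups received 1000 ng of pSuper puro plasmid, which drives a short hairpin and a puromycin resistance gene. Puromycin at 2 µg/ml was started after 24 h and kept for 7 days, and single colonies were then picked. The labels do not say whether 2 libraries of a group came from 1 clone, from separate clones or from separate cultures, and every p-value here reflects the spread of these libraries alone, which could be technical. The other 4 libraries overexpress Zscan4c or its control and were used for 1 check only.

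Zscan4 genes code for zinc finger proteins with a SCAN domain, and they lie as a cluster of near-identical copies on chromosome 7. They are known for bursts of transcription in the 2-cell embryo and in a small, changing minority of cultured ES cells. An shRNA is processed into a small interfering RNA that guides the cutting of matching messenger RNA, and a random sequence serves as its control. ES cells are held undifferentiated by LIF. Fibroblast growth factor (FGF), Nodal, bone morphogenetic protein (BMP), Wnt and Notch signals are known to act in self-renewal or in differentiation.

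The gene table covered 17938 genes with 17392177 to 21762116 recovered reads per library. For repeats, 767 names held 305226 to 398242 reads. Levels below are the deposited normalised read counts, and fold changes are differences of log2(value + 1), KD Zscan4 minus KD control, which understate the change of low genes. The copies of Zscan4 are near-identical, so reads may be split between them, and the strand setting of the counting is not given in the sources used here. The targeted Zscan4c gave 575 and 566 in KD control and 11.2 and 15.5 in KD Zscan4, a log2 difference of -5.33 (SE 0.19, adjusted p = 3.0e-09 in limma). The 9 measured genes and pseudogenes of the cluster summed to 3752 and 3336 in KD control and to 97.4 and 136 in KD Zscan4, so both knockdown libraries lay far below both controls. ES cell markers were abundant in all 4 libraries: the sum of 8 markers was 135800 to 136500 in KD control and 133520 to 139330 in KD Zscan4. Of these markers 3 rose and 2 fell, and none by more than 2-fold: Zfp42 and Sox2 rose (0.27 and 0.24 on the log2 scale) and Utf1 fell (-0.52), while Esrrb did not pass (0.01). Of 9 feeder fibroblast markers 7 were measured, and their sum was 549 to 628 in KD control and 418.4 to 475 in KD Zscan4. Of the 7, 2 rose and 1 fell as deposited, with a median of 0.07: Pdgfra fell from 320 and 274 in KD control to 20.3 and 14.6 in KD Zscan4, while Thy1 rose from 100 and 87.6 to 175 and 179 and Pdgfrb from 91.3 and 64.0 to 159 and 111. The collagen genes Col1a1 and Col1a2 did not pass (both 0.07), and the part of such cells in the results below was not tested.

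Over all genes tested, 3082 rose and 3321 fell at a false discovery rate of 0.05 in limma, 17.2% and 18.5%, together 35.7%. The values of the groups did not overlap in 67.8% of genes. DESeq2 on the recovered reads called 1899 rises and 2242 falls, all of them among the limma calls. Chromosome 1 stood apart from the other autosomes and from X. Over its 816 genes whose mean reached 20, the median log2 difference was 0.54, a level 1.46-fold higher in KD Zscan4, and 90.1% of the values were above 0. Elsewhere the chromosome medians, X included, ran from -0.07 to 0.03; 29 mitochondrial genes had a median of 0.31 and 7 genes of Y one of -0.37.

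**Figure D1:**
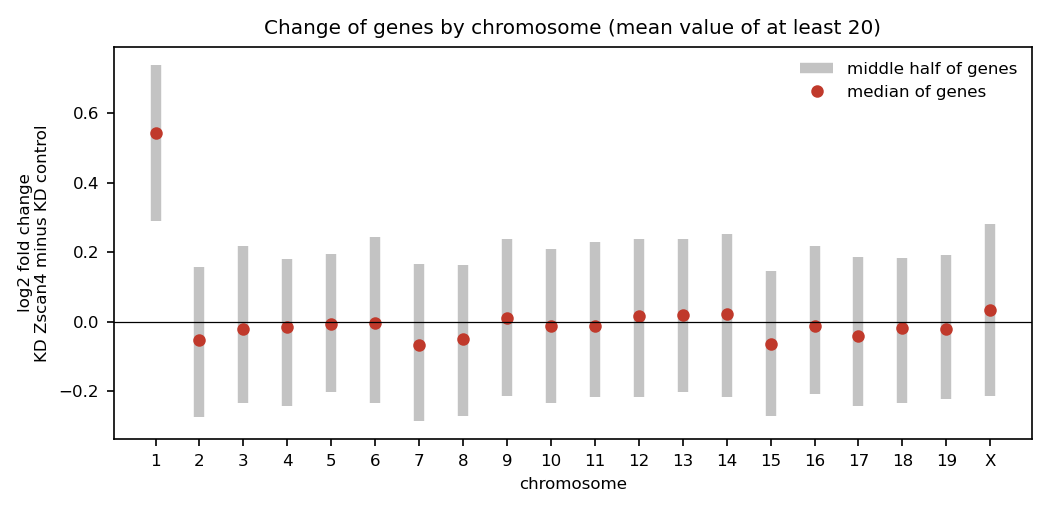
Median (red point) and range from the first to the third quartile (grey bar) of the log2 fold change, KD Zscan4 minus KD control, of genes with a mean of at least 20, by chromosome. Chromosome 1 lies at 0.54, and the other autosomes and X lie close to 0.

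The shift ran along chromosome 1. Windows of 10 Mb were read, here and below, only where at least 10 genes reached a mean of 20. All 18 such windows of chromosome 1 had a positive median, from 0.38 to 0.66. The 4 pairs of 1 knockdown and 1 control library gave medians between 0.51 and 0.55. The shift was as large in each of 4 classes of expression level, from 0.53 to 0.56. Of the chromosome's genes 53.9% had a ratio between 1.25 and 1.75. In the overexpression arm, the median of 854 chromosome 1 genes was -0.03. Chromosome number was not measured in these libraries, so the origin of the shift was not tested. Because a single gene on chromosome 1 is called higher when it follows its chromosome, all genes were also tested after the chromosome's median had been taken from the chromosome 1 values of the KD Zscan4 libraries. This second reading is called centred below and is the one used for the gene groups.

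Centring left 2543 rises and 3429 falls, 14.2% and 19.1% of all genes. On chromosome 1, 616 rises and 38 falls among 1031 genes became 130 rises and 181 falls. Of the 616 rises, 425 no longer passed, 61 turned into falls and 130 remained, and 82 genes that had not passed became falls. Fzd5 and Fzd7, receptors for Wnt proteins, and Mcm3, a subunit of the replicative helicase, show the turn: their log2 fold changes of 0.33, 0.18 and 0.38 became -0.21, -0.36 and -0.16. On the other chromosomes the share of genes called hardly moved, from 34.0% to 33.5%. A change of 2-fold or more was called up for 594 genes (3.31%) and down for 727 (4.05%). Without KD control replicate 2, 3962 genes were called centred in place of 5972, and the call of the Fzd7 rise was lost in DESeq2 and in 3 of the 4 fits that left out a library.

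Some genes of chromosome 1 stood well above its shift. Steap3, a ferrireductase of iron uptake, gave 331 and 371 in KD control and 1805 and 1779 in KD Zscan4, a log2 difference of 2.35 (SE 0.07, adjusted p = 1.1e-09 in limma) and a centred value of 1.81. The controls and the knockdown libraries did not overlap, and both knockdown libraries were about alike. Lamb3, a chain of the laminin of epithelial basement membranes, gave 7.16 and 8.98 in KD control and 57.8 and 56.3 in KD Zscan4, with a centred value of 2.14. Slco4c1, an organic anion transporter, reached a centred 1.39, Slc19a3, a thiamine transporter, 1.39, and the noncoding RNA Platr5 1.54. Epha4, an Eph receptor, rose by a centred 0.46.

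Others fell although their chromosome rose. Aim2, a sensor of cytosolic DNA, gave 210 and 198 in KD control and 11.2 and 22.3 in KD Zscan4, a log2 difference of -3.60 (SE 0.28, adjusted p = 1.6e-06 in limma). Rxrg, a retinoid X receptor, gave 85.1 and 93.2 in KD control and 23.3 and 18.4 in KD Zscan4. Its log2 fold change was -2.05 as deposited and -2.59 centred. Serpine2, a secreted protease inhibitor, Lefty2, an inhibitor of Nodal, and Hes6, a regulator of the Notch target Hes1, fell by smaller amounts, with centred values of -1.48, -1.32 and -1.33. The homeobox gene En1 had a centred value of -1.88, and its call on the deposited values was lost in DESeq2 and without KD control replicate 2.

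Off chromosome 1, the gene with the most abundant transcripts among the largest rises was Ldhb, the heart-type subunit of lactate dehydrogenase. It gave 1837 and 1728 in KD control and 9106 and 8412 in KD Zscan4, a log2 difference of 2.30 (SE 0.06, adjusted p = 1.7e-10 in limma), and its 4 libraries fell into 2 tight, separate pairs. Ldha, the muscle-type subunit, gave 36613 and 35420 in KD control and 41533 and 37938 in KD Zscan4 and did not pass (0.14). Arl14epl gave 60.9 and 82.0 in KD control and 483 and 494 in KD Zscan4, and Mobp, named for its protein in myelin, 74.3 and 87.6 in KD control and 430 and 415 in KD Zscan4. Their log2 fold changes were 2.77 and 2.38. Calb2, the calcium-binding protein calretinin, rose by 2.73, Plac8 by 2.60, the zinc finger gene Zfp951 by 2.77 and Rbp4, the retinol carrier of plasma, by 2.75.

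Rises among low genes were as large on the log2 scale but rested on fewer reads. Blnk, an adaptor of B cell receptor signalling, gave 12.5 and 4.49 in KD control and 68.0 and 54.4 in KD Zscan4, with a log2 difference of 2.84 (SE 0.41, adjusted p = 2.3e-04 in limma). Neurog3, a transcription factor of endocrine progenitors, gave 21.5 and 8.98 in KD control and 85.2 and 69.9 in KD Zscan4, and Abcc8, the sulfonylurea receptor, 8.96 and 14.6 in KD control and 82.2 and 56.3 in KD Zscan4. In each of these the control libraries differed from each other by more than the knockdown libraries did on the log2 scale, and the groups still did not overlap. Gabrp, a GABA receptor subunit, rose by 2.32, Siglecf, a sialic acid binding lectin, by 2.55, Tspan8, a tetraspanin, by 2.38, Krt222 by 2.33 and Lrrc9 by 2.57. All these low genes had a KD control mean below 20 and reached the mean of 20 required for naming through KD Zscan4.

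**Figure D2:**
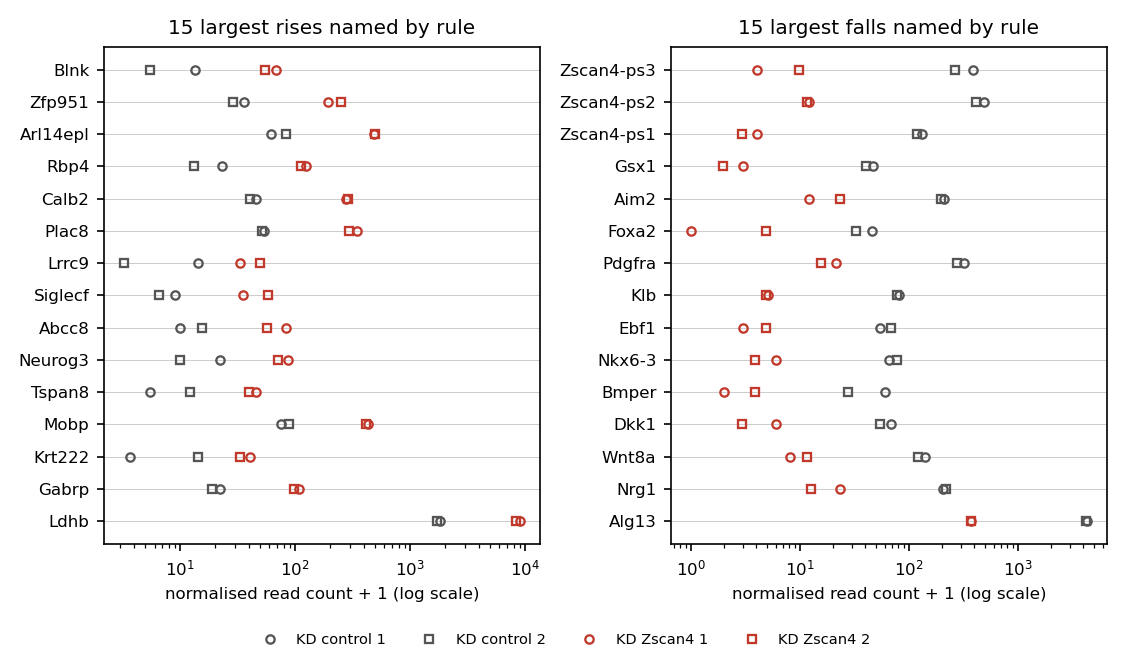
Normalised read count plus 1 (log scale) of the 15 largest rises and 15 largest falls named by rule, with the 2 KD control libraries in grey and the 2 KD Zscan4 libraries in red. The groups do not overlap in any of these genes, which the rule for naming genes required, and Ldhb and Alg13 are the most abundant gene of each panel.

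Of the 15 falls shown, the 3 largest were pseudogenes of the targeted cluster, Zscan4-ps3 (-5.67), Zscan4-ps2 (-5.25) and Zscan4-ps1 (-5.18). The most abundant gene was Alg13, a subunit of the enzyme that adds the second sugar of the N-glycan precursor, on chromosome X (144317804 to 144374450, mm10). It gave 4331 and 4224 in KD control and 373 and 374 in KD Zscan4, a log2 difference of -3.51 (SE 0.06, adjusted p = 8.1e-12 in limma). Its chromosome did not move with it: the 13 windows of 10 Mb on X had medians between -0.14 and 0.16, and Ammecr1, on the same chromosome, gave -0.05. Pdgfra, the receptor for platelet-derived growth factor that marks primitive endoderm and mesenchyme, fell by 4.03 from the levels given above. Nrg1, a ligand of ErbB receptors, gave 206 and 220 in KD control and 22.3 and 11.6 in KD Zscan4 (-3.64). Klb, a coreceptor for endocrine FGFs, fell from 80.6 and 76.4 in KD control to 4.06 and 3.88 in KD Zscan4, and Bmper, a secreted BMP regulator, by 3.87. Another 4 of these falls were transcription factor genes: the homeobox genes Gsx1 (45.7 and 39.3 in KD control and 2.03 and 0.971 in KD Zscan4) and Nkx6-3, the forkhead gene Foxa2 and the early B cell factor Ebf1, at -4.15, -3.88, -4.12 and -3.99. These 4 had at most 5.07 in any KD Zscan4 library and reached the mean of 20 through KD control alone, so they are not read as a class. Other falls with a KD Zscan4 mean below 20 also reached it through KD control. Among them are Klb and Bmper here, and Wnt8a, Dkk1, Sp8, Fgf10 and Tbx4 below. Foxa2 had no read in KD Zscan4 replicate 1 and 3.88 in replicate 2, so its log2 value depends on the pseudocount of 1 and is no bound.

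Gene groups were read against all genes tested, of which 14.2% rose and 19.1% fell when centred, with a median of -0.01. The groups are shown by the share of members called each way.

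**Figure D3:**
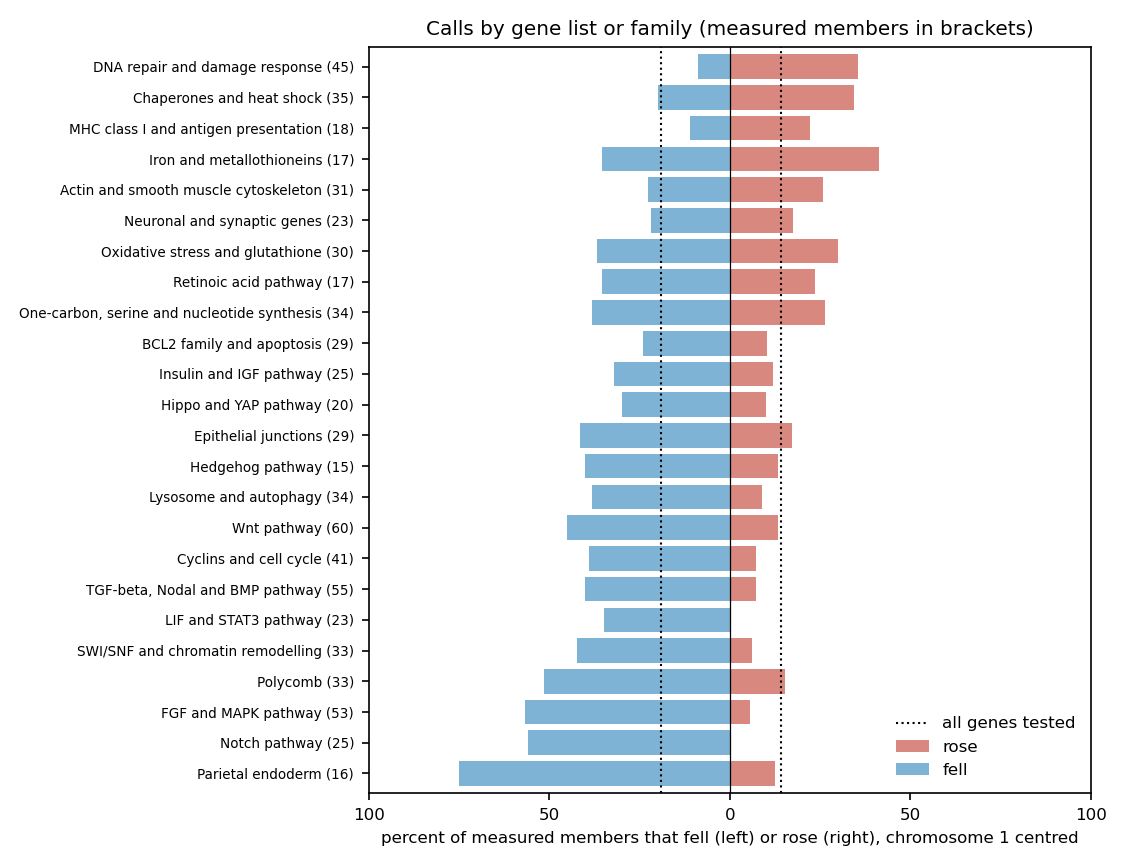
Percent of measured members of each gene list that fell (blue, left) or rose (red, right) with chromosome 1 centred, for lists of pathways and functions with at least 15 measured members. Dotted lines mark 19.1% falling and 14.2% rising over all genes tested, and the longest bars to the left belong to parietal endoderm, Notch and FGF.

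FGF signalling is known to run from a ligand through a receptor kinase and its adaptors to the MAP kinases, and its target genes include phosphatases and Sprouty proteins that damp the same signal. Of 53 members 30 fell and 3 rose, with a median of -0.25. Among targets and feedback inhibitors 14 of 20 fell and 2 rose (median -0.55), among ligands and their binding proteins 7 of 10 fell (median -0.85), and among receptors and adaptors 7 of 12 fell (median -0.27). Of 11 kinases and Ras proteins, 2 fell and 1 rose (median -0.09).

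Dusp6, a phosphatase of MAP kinases, gave 2035 and 2166 in KD control and 971 and 877 in KD Zscan4, a log2 difference of -1.18 (SE 0.07, adjusted p = 1.6e-07 in limma). Spry2, an inhibitor of receptor kinase signalling, gave 2732 and 2801 in KD control and 1318 and 1290 in KD Zscan4 (-1.08), and Spry4 4459 and 4641 in KD control and 2221 and 2252 in KD Zscan4 (-1.02). In each of these 3 feedback genes the gap between the groups was far wider than that between replicates. Upstream, Gab1, a docking protein that links receptors to Ras, gave 9682 and 10080 in KD control and 3800 and 3680 in KD Zscan4, a log2 difference of -1.40 (SE 0.05, adjusted p = 3.1e-09 in limma). The receptors Fgfr1 and Fgfr2 fell (-0.53 and -0.86), as did Fgf10 (-2.71) and the binding proteins Fgfbp1 (-1.43) and Fgfbp3 (-1.90). The main FGF of ES cells, Fgf4, gave 3949 and 3885 in KD control and 3561 and 3542 in KD Zscan4 (-0.14), and its call as a fall was lost in DESeq2 and without either control replicate. Egr1 and Ier3, immediate early genes of the same pathway, went the other way, at 0.58 and 0.66, and the call of Ier3 was lost without KD control replicate 1.

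**Figure D4:**
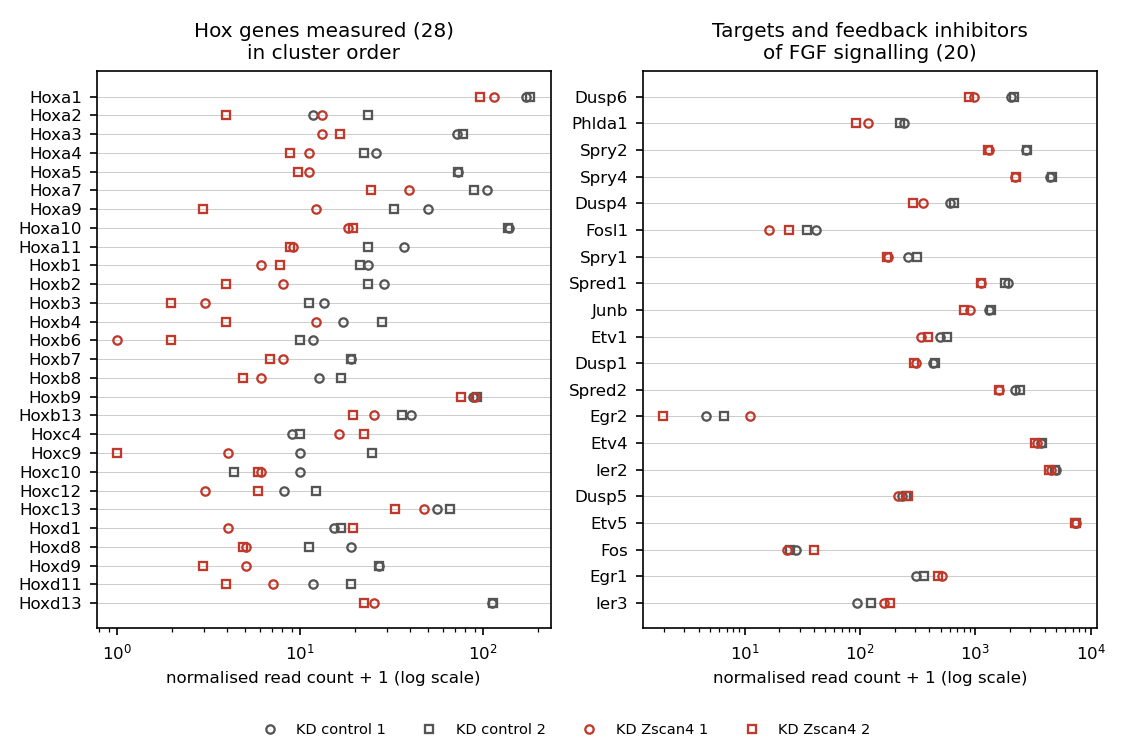
Normalised read count plus 1 (log scale) of the 28 measured Hox genes in cluster order (left) and of the 20 targets and feedback inhibitors of FGF signalling ordered by fold change (right), KD control in grey and KD Zscan4 in red. Most red points lie left of the grey ones, and Egr1 and Ier3 lie the other way.

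Hox genes, homeobox genes that pattern the body axis and are held silent by Polycomb complexes in ES cells, had few reads in every library. Of 28 measured, 20 fell, none rose and the median was -1.59. The lowest mean over the 4 libraries of any gene measured was 4.58. A Hox gene low in KD Zscan4 could thus be measured through KD control, so the count and median describe these measured genes only. Summed over the family, the level was 1188 to 1192 in KD control and 411 to 498 in KD Zscan4. Hoxa10 gave 137 and 136 in KD control and 17.3 and 18.4 in KD Zscan4, a log2 difference of -2.87 (SE 0.22, adjusted p = 1.3e-06 in limma). Hoxa5 gave 71.6 and 71.9 in KD control and 10.1 and 8.74 in KD Zscan4 (-2.80), and Hoxd13 111 and 112 in KD control and 24.4 and 21.4 in KD Zscan4 (-2.24), and in all 3 the groups lay far apart. Of the 8 genes that did not pass, Hoxc4 had a higher value in both knockdown libraries (1.00). DESeq2 called 11 falls and no rise.

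Wnt proteins bind Frizzled receptors and keep beta-catenin from being degraded, which then acts with TCF and LEF factors on target genes such as Axin2 and Sp5. Of 60 members 27 fell and 8 rose when centred (25 and 10 as deposited), with a median of -0.25. Transducers and targets fell in 10 of 18 and rose in 2, and antagonists were split, with 5 rises and 4 falls in 12. Wnt8a, a ligand of the gastrulating embryo, gave 140 and 121 in KD control and 7.10 and 10.7 in KD Zscan4, a log2 difference of -3.75 (SE 0.28, adjusted p = 1.2e-06 in limma), and the ligand Wnt5a gave 35.8 and 30.3 in KD control and 5.07 and 4.85 in KD Zscan4 (-2.51). Dkk1, a secreted antagonist, gave 68.1 and 53.9 in KD control and 5.07 and 1.94 in KD Zscan4 (-3.86). Its relative Dkk3 rose from 54.6 and 70.8 in KD control to 131 and 163 in KD Zscan4 (1.22), and Sfrp1, a secreted decoy of Wnt, rose by 0.57.

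Among the targets, Sp5, a zinc finger gene switched on by beta-catenin, gave 143 and 170 in KD control and 22.3 and 18.4 in KD Zscan4, a log2 difference of -2.88 (SE 0.22, adjusted p = 1.2e-06 in limma). The related gene Sp8 gave 52.8 and 59.5 in KD control and 7.10 and 8.74 in KD Zscan4 (-2.68), and Axin2, a feedback inhibitor, 345 and 385 in KD control and 148 and 129 in KD Zscan4 (-1.39). All 3 were lower in both knockdown libraries than in either control. Ctnnb1, the beta-catenin gene itself, gave 15535 and 15620 in KD control and 18387 and 17931 in KD Zscan4, a small rise (0.22) whose call was lost without either control replicate. The 250 bases before the RefSeq start of Sp5 (GRCm38.p6, chr2:70474673-70474922, plus strand) are shown because they hold 1 match to the TCF/LEF motif CTTTGAT, in capitals. The motif was searched on both strands, and 3.23% of the 27025 promoters of that length hold it. Of 11979 promoters of genes tested 2.15% hold it. Of 447 promoters of genes that fell at least 2-fold 2.24% hold it, and of 416 that rose at least 2-fold 3.1%.
Sp5: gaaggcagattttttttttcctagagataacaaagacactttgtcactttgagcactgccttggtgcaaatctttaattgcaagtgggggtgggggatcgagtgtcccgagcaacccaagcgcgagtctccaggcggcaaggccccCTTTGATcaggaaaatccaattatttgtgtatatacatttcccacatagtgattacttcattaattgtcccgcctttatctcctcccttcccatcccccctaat
The match begins 104 bases before the start and describes the letters only.

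Notch receptors are cut when a Delta or Jagged ligand on a neighbouring cell binds them, and the released part acts with Rbpj on Hes genes. None of 25 members rose and 14 fell, with a median of -0.50. Dll1 gave 132 and 148 in KD control and 28.4 and 25.2 in KD Zscan4, a log2 difference of -2.34 (SE 0.20, adjusted p = 3.6e-06 in limma), and the Jagged ligand Jag1 269 and 272 in KD control and 133 and 121 in KD Zscan4 (-1.08). Jag2 fell by 0.66, Dll3 by 0.68 and the receptor Notch3 by 0.55. Of 6 ligands 4 fell (median -0.79), and of 15 transducers and targets 7 fell (median -0.33).

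In the transforming growth factor pathway 22 of 55 members fell and 4 rose, with a median of -0.24. Bmp4, a ligand that supports self-renewal together with LIF, gave 427 and 362 in KD control and 181 and 169 in KD Zscan4, a log2 difference of -1.17 (SE 0.11, adjusted p = 9.8e-06 in limma), and Id2, an inhibitor of differentiation induced by BMP, 489 and 499 in KD control and 201 and 198 in KD Zscan4 (-1.30). Inhbb, an activin subunit on chromosome 1, went the other way, at 0.90 as deposited and 0.36 centred. Of 23 members of LIF signalling 8 fell and none rose when centred, among them Gadd45g, a stress and growth arrest gene (-1.70).

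Smaller pathways were mixed. Of 15 Hedgehog members 6 fell and 2 rose when centred, and 4 fell and 4 rose as deposited: the coreceptor Gas1 fell (-0.99), as did the transducer Smo (-0.49), while the target Gli1 rose from 665 and 694 in KD control to 1092 and 1140 in KD Zscan4 (0.72). Of 17 retinoic acid members 6 fell and 4 rose: the receptor Rarg fell from 7668 and 8075 in KD control to 4110 and 3930 in KD Zscan4 (-0.97), while Crabp1, a binding protein for retinoic acid, rose (1.21), as did the receptor Rarb (1.91). Of 20 Hippo members 6 fell and 2 rose. Ccn2, a secreted target of YAP, gave 892 and 942 in KD control and 241 and 235 in KD Zscan4, a log2 difference of -1.94 (SE 0.08, adjusted p = 1.3e-08 in limma). Amot, a binding partner of YAP, fell by 1.23, and Yap1 itself did not pass (-0.05). Of 25 insulin and IGF members 8 fell and 3 rose, among them Igfbp3 (-0.82).

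Parietal endoderm is the extraembryonic tissue that lays down a thick basement membrane, and its genes are known from ES cells that turn to endoderm. Of 16 measured members 12 fell and 2 rose, with a median of -0.87. The paired genes Col4a1 and Col4a2, which share a promoter region on chromosome 8 and code for type IV collagen, fell to similar extents. Col4a1 gave 4439 and 4317 in KD control and 875 and 748 in KD Zscan4 (-2.43, SE 0.07). Col4a2 gave 2365 and 2399 in KD control and 361 and 366 in KD Zscan4 (-2.71, SE 0.06), and in both the replicates lay close together. Lama1, a laminin chain, gave 3504 and 3513 in KD control and 851 and 803 in KD Zscan4, a log2 difference of -2.08 (SE 0.06, adjusted p = 3.6e-10 in limma), and Lamb1 2828 and 2785 in KD control and 1326 and 1312 in KD Zscan4 (-1.09). In these 4 genes the groups lay far apart. Pth1r, a receptor of parathyroid hormone-related peptide, fell by 2.10, Hspg2, the perlecan gene, by 0.60 and Sparc by 0.51. Plat, tissue plasminogen activator, rose (1.29).

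The sum over the 16 genes was 34204 to 35220 in KD control and 19366 to 20374 in KD Zscan4. Of 11 measured visceral endoderm genes 5 fell and 4 rose, with a median of -0.37: the endocytic receptor Lrp2 fell from 1876 and 1797 in KD control to 1027 and 1014 in KD Zscan4 (-0.85), while Rbp4 rose as above and Cpn1, a carboxypeptidase, by 0.92. Of 2 endoderm transcription factor genes outside these lists, Gata4 fell from 489 and 458 in KD control to 39.6 and 50.5 in KD Zscan4 (-3.38) and Sox7 fell from 106 and 130 in KD control to 20.3 and 8.74 in KD Zscan4 (-3.04). In bulk RNA, fewer cells of a type and less RNA per cell cannot be told apart, and the part of cell makeup in these falls was not tested.

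Matrix and contact genes outside that list showed both directions. Of 10 laminin chains 5 fell and 2 rose when centred: Lama5 fell (-0.95), and Lama3 rose from 29.6 and 22.5 in KD control to 90.3 and 93.2 in KD Zscan4 (1.79), as did Lamb3 above. Gja1, the gap junction protein connexin 43, gave 2543 and 2730 in KD control and 501 and 513 in KD Zscan4, a log2 difference of -2.37 (SE 0.06, adjusted p = 3.0e-10 in limma). Of 19 ephrins and Eph receptors, which signal between touching cells, 10 fell and 3 rose. Epha1 gave 416 and 481 in KD control and 71.0 and 82.5 in KD Zscan4 (-2.53), Epha2 5483 and 5795 in KD control and 2041 and 2032 in KD Zscan4 (-1.47) and the ligand Efnb2 fell by 2.05. Of 27 semaphorins and plexins 8 fell and 1 rose when centred (8 and 3 as deposited), among them Sema6a (-2.98), and of 21 integrins 8 fell and 4 rose, among them Itgb5 (-1.08). Claudins fell in 4 of 10 and rose in 1, and of 29 genes of epithelial junctions 12 fell and 5 rose, with Cldn7 at -1.33 and Cdh2, N-cadherin, at -1.20.

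Members of these families of transcription factors fell more often than they rose. Of 32 forkhead genes 17 fell and 1 rose (median -0.48), with Foxi3 at -2.34 and Foxh1, a partner of Nodal's SMADs, from 828 and 877 in KD control to 389 and 445 in KD Zscan4 (-1.03). Of 15 Sox genes 8 fell and 2 rose (median -0.82 centred), with Sox18 from 134 and 143 in KD control to 20.3 and 24.3 in KD Zscan4 (-2.59) and Sox1, a neural factor, at -1.15. Of 5 GATA genes 3 fell and 1 rose. Of 8 T-box genes 3 fell and 1 rose, with Tbx3, a factor of naive ES cells, up from 2112 and 2266 in KD control to 3260 and 3588 in KD Zscan4 (0.64) and Tbx4 down (-2.31). Of 16 Krüppel-like factors 6 fell and 1 rose, which was Klf17, a gene of the early embryo (10.7 and 6.74 in KD control and 30.4 and 42.7 in KD Zscan4, 1.96).

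Chromatin and cell cycle genes also fell more often than they rose. Of 33 Polycomb genes, which keep developmental genes silent, 17 fell and 5 rose when centred (median -0.18). Bmi1 gave 110 and 118 in KD control and 45.7 and 44.6 in KD Zscan4 (-1.32), Epop, an accessory subunit of the second Polycomb complex, 11641 and 11964 in KD control and 5560 and 5408 in KD Zscan4, a log2 difference of -1.11 (SE 0.05, adjusted p = 1.8e-08 in limma), and Kdm2b, which brings the first complex to CpG islands, fell by 0.84. Of 33 remodelling genes 14 fell and 2 rose, with Chd7 at -0.76, Arid1b at -0.62 and Chd3 at 0.74. Of 41 cyclins and cell cycle genes 16 fell and 3 rose: Ccnd1, cyclin D1, fell from 3546 and 3598 in KD control to 2174 and 2132 in KD Zscan4 (-0.73) and E2f2 by 1.15, while Cdk1, Ccna2 and Ccnb1 did not pass (0.11, 0.12 and 0.11). Cdkn2c, a cell cycle inhibitor gene with few reads, fell from 32.2 and 31.4 in KD control to 8.12 and 8.74 in KD Zscan4 (-1.80). The related inhibitor Cdkn2b was called a fall as well (-1.02), a call lost in DESeq2, without KD Zscan4 replicate 2 and without either control replicate.

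DNA repair genes leaned the other way, with 16 rises and 4 falls in 45 when centred and a median of 0.14. Atr, a kinase of the replication checkpoint, gave 311 and 307 in KD control and 433 and 588 in KD Zscan4, a log2 difference of 0.71 (SE 0.12, adjusted p = 8.7e-04 in limma), and Brca2, a gene of homologous recombination, 471 and 449 in KD control and 603 and 843 in KD Zscan4 (0.63), and in both KD Zscan4 replicate 2 was well above replicate 1. Brca1 did not pass (0.01). Parp1, Exo1 and Xrcc5 lie on chromosome 1 and rose by 0.62, 0.54 and 0.74 as deposited. Centred, Xrcc5 still rose (0.20), and Parp1 and Exo1 did not pass (0.08 and -0.01). Among 29 apoptosis genes 7 fell and 3 rose when centred (7 and 5 as deposited), with the p53 target Bbc3 at -0.82 and Apaf1 at -0.69.

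Among genes of abundant machineries, rises were more frequent than falls and were small. Of 82 cytosolic ribosomal protein genes 37 rose and 3 fell (median 0.17), and their sum was 1479500 to 1521500 in KD control and 1594200 to 1785200 in KD Zscan4. Of 37 proteasome subunits 11 rose and 2 fell (median 0.11), and of 36 subunits of respiratory complex I 11 rose and 2 fell when centred (15 and 1 as deposited, median 0.12). Changes of single members were mostly small: Rps16 gave 15785 and 14894 in KD control and 21532 and 18265 in KD Zscan4 (0.37) and Psmb3 4646 and 4620 in KD control and 6304 and 5566 in KD Zscan4 (0.35), and in both of them KD Zscan4 replicate 1 was the higher library. Rpl39l, a variant known from testis, was an exception at 170 and 133 in KD control and 308 and 300 in KD Zscan4 (1.01). Copies of ribosomal protein genes are many, so reads can be shared between them.

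Of 21 tubulin genes 6 rose and none fell when centred, with Tubb2b from 4138 and 4000 in KD control to 6289 and 6317 in KD Zscan4 (0.63), Tubb2a at 0.89 and Tuba3a at 1.01. Of 16 aldehyde dehydrogenases 6 rose and 2 fell, with Aldh1l2, a mitochondrial folate enzyme, at 1.42, and DESeq2 called neither fall. Of 34 entries for one-carbon, serine and nucleotide synthesis, 9 rose and 13 fell when centred (10 and 12 as deposited, median -0.05 centred). Among the rises, Phgdh, the first enzyme of serine synthesis, gave 3658 and 3464 in KD control and 6024 and 5733 in KD Zscan4, a log2 difference of 0.72 (SE 0.05, adjusted p = 1.1e-06 in limma), and Psph, its last, at 0.78. Of 35 chaperones 12 rose and 7 fell, and the stress-induced Hspa1a and Hspb1 were among the falls, at -1.37 and -0.67. Of 30 antioxidant genes 9 rose and 11 fell: Srxn1, sulfiredoxin, fell from 1324 and 1436 in KD control to 696 and 681 in KD Zscan4, and Cat, catalase, rose (0.54).

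Metallothioneins, small proteins that bind zinc and copper and are switched on by the factor MTF1 through metal response elements, rose together. Mt2 gave 1454 and 1339 in KD control and 3178 and 3054 in KD Zscan4, a log2 difference of 1.16 (SE 0.06, adjusted p = 7.2e-08 in limma). Mt1 gave 1468 and 1352 in KD control and 2846 and 2709 in KD Zscan4 (0.98), and Mt3, which was far lower, 37.6 and 38.2 in KD control and 68.0 and 81.5 in KD Zscan4 (0.96). The 3 genes lie near each other on chromosome 8, and in each both knockdown libraries were above both controls. The zinc exporter Slc30a1, another gene with metal response elements, lies on chromosome 1 and rose by 0.53, no more than its chromosome (-0.01 centred).

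The 250 bases before the RefSeq starts of Mt1 (GRCm38.p6, chr8:94178839-94179088, plus strand) and Mt2 (chr8:94172368-94172617, plus strand) are shown with matches to the core of the metal response element, TGCACNC or TGCGCNC on either strand, in capitals.
Mt1: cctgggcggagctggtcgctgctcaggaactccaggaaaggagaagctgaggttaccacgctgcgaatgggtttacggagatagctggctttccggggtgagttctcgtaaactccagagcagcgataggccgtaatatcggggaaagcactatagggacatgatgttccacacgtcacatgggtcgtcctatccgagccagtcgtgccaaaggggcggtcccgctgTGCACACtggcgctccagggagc
Mt2: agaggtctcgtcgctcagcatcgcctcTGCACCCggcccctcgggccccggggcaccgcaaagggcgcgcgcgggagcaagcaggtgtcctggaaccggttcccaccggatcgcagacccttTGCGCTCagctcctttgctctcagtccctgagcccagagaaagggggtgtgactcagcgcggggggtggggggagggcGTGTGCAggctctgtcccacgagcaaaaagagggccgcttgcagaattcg
In these 250 bases Mt1 held 1 match and Mt2 held 3, and bases past the RefSeq starts were not searched. Of all promoters of that length 21.3% held at least 1 match and 1.28% at least 3, and of the promoters of genes tested 30.4% and 2.18%. The shares were 26.9% and 1.44% for genes that rose at least 2-fold, and 31.5% and 2.24% for genes that fell at least 2-fold.

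Iron genes were split: of 17 members of the list with the metallothioneins, 7 rose and 6 fell when centred, and 9 rose and 5 fell as deposited. Steap2, a relative of Steap3, fell (-1.11), and the ferritin light chain Ftl1 fell from 52662 and 52720 in KD control to 41760 and 39886 in KD Zscan4 (-0.37). The transferrin receptor Tfrc rose (0.25), and the ferritin heavy chain Fth1 did not pass (0.03). Among 274 solute carriers 44 rose and 72 fell when centred, with Slc7a7, a subunit of a cationic amino acid transporter, from 2728 and 2975 in KD control to 1007 and 967 in KD Zscan4 (-1.53) and Slc4a5, a bicarbonate transporter, at 1.58. Of 18 genes of antigen presentation 4 rose and 2 fell, with H2-Q7 at 1.34 and H2-K1 at 0.41. Of 31 collagen genes 8 rose and 6 fell when centred (8 and 5 as deposited), where DESeq2 called 2 rises and 5 falls as deposited, and their sum, which includes Col4a1 and Col4a2, was 15197 to 15516 in KD control and 8693 to 8977 in KD Zscan4. Other lists with members in both directions were actin genes (8 rose and 7 fell of 31), kinesins (5 and 8 of 36, and 8 and 8 as deposited), Trim genes (8 and 13 of 53), neuronal genes (4 and 5 of 23) and keratins (1 and 2 of 15). Of 21 Platr transcripts, noncoding RNAs known from ES cells, 9 rose and 3 fell when centred (median 0.67), and DESeq2 called 3 rises and 1 fall as deposited, where limma called 10 and 3.

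Genes that changed at least 2-fold in the same direction lay next to each other at several places. Runs of 3 or more such neighbours, counted over genes whose mean reached 20, numbered 15 off chromosome 1, a rule set after the values were seen. The count includes the targeted Zscan4 cluster (9 genes) and 3 mitochondrial tRNA genes. It also includes arrays of predicted Gm genes and of Usp17l copies, whose reads can be shared. How many runs would arise without any link between neighbours was not tested. On chromosome 7, Usp29, Zim3, Zfp264 and Aurkc (6730578 to 7003091) rose by 1.48, 1.64, 1.11 and 2.21. Aurkc, a kinase of meiotic spindles, was the clearest, at 119 and 112 in KD control and 569 and 511 in KD Zscan4, whereas Peg3, the paternally expressed neighbour of Usp29, did not pass (-0.12). Farther along the same chromosome the imprinted pair H19 and Igf2, which are expressed from opposite parental copies, both fell, H19 from 1232 and 1159 in KD control to 424 and 353 in KD Zscan4 (-1.62) and Igf2 by 1.30. The neighbours Kirrel2 and Nphs1, which code for nephrin-family proteins, fell by 1.31 and 1.20.

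On chromosome 6, Zyx, the focal adhesion protein zyxin, fell from 923 and 952 in KD control to 300 and 370 in KD Zscan4 (-1.49) with Fam131b (-1.75) and Epha1 on either side. The spans of Zyx (42349630 to 42360213) and Epha1 (42358487 to 42373268) overlap on opposite strands. With the strand setting not given, reads of one may be counted for the other. On chromosome 10, Enpp3, an ectonucleotidase, gave 1016 and 984 in KD control and 327 and 320 in KD Zscan4 (-1.63) beside Ccn2. On chromosome 5, the interferon-induced 2'-5' oligoadenylate synthetases Oas1a, Oas1g and Oas1c rose by 2.46, 1.93 and 1.01, with Oas1a at 35.8 and 32.6 in KD control and 193 and 193 in KD Zscan4. The Oas1 genes are near-identical copies and their reads can be shared.

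On the other autosomes, windows of 10 Mb had medians from -0.46 to 0.68. The highest, the first 10 Mb of chromosome 14, held 16 predicted protein-coding genes with Gm names, whose reads may be shared where they are copies of each other. Of these 12 rose and none fell (median 0.78), and their sum was 502 and 454 in KD control and 807 and 879 in KD Zscan4. The 8 other genes of that window had a median of 0.13, so the window did not move as a whole. The lowest, from 110 to 120 Mb of the same chromosome, held 14 genes, among them Mir17hg, the host gene of the miR-17-92 cluster (262 and 227 in KD control and 128 and 155 in KD Zscan4, -0.79), and the transporter Abcc4 (-0.71). Of its genes 35.7% were called, against 40.3% of all chromosome 14 genes with a mean of at least 20. Against the 2 controls the median of this window was -0.57 and -0.65 for KD Zscan4 replicate 1, and -0.21 and -0.39 for replicate 2.

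The Zscan4c protein is known to bind TGCACAC, and this word was counted in the 250 bases before the RefSeq starts, on both strands. It was found in 3.12% of 11979 promoters of genes tested, in 5.53% of 416 promoters of genes that rose at least 2-fold and in 4.92% of 447 promoters of genes that fell at least 2-fold. The word is one form of the metal response core above, and both the match before Mt1 and the match 50 bases before the start of Mt2, on the other strand, have this form. The counts rest on 23 and 22 promoters, and no test was made of them.

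Repeats are counted here by name, each name summing many copies across the genome. Of 767 names 46 rose and 22 fell, 6.0% and 2.87%, on the deposited scaling, and the median of all names was 0.26. The factors behind the deposited repeat values were close to those of the gene table, 1.11 and 0.887 in KD control and 0.987 and 1.03 in KD Zscan4. Scaling by TMM over the repeat names moved the median to 0.01 and left 3 rises (0.391%) and 31 falls (4.04%). The log2 values and counts below are on the deposited scaling unless TMM is named. They are to be read against the deposited median of 0.26. The 68 calls became 12 without KD control replicate 2, 27 without KD control replicate 1 and 166 without KD Zscan4 replicate 1. The 8 falls named by rule passed with both scalings.

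**Figure D5:**
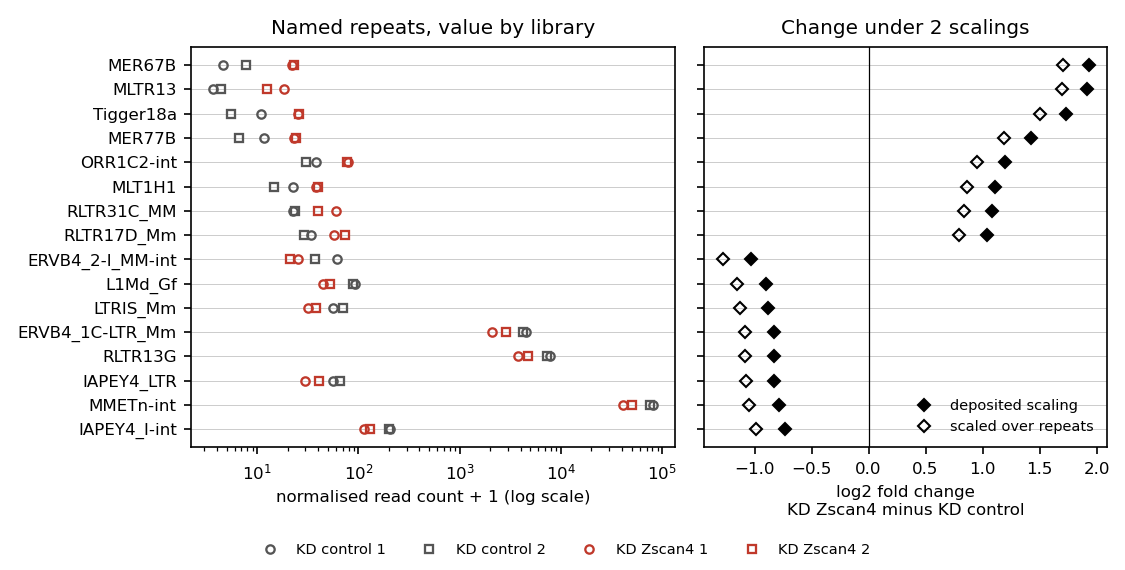
Normalised read count plus 1 (log scale, left) of the 8 rises and 8 falls of repeat names chosen by the naming rule, by library, and their log2 fold change with the deposited scaling and with TMM factors over repeat names (right). The TMM values lie lower throughout, and the falls stay below 0 with either scaling.

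Early transposons (ETn) and their MusD relatives are endogenous retroviruses known to be transcribed in ES cells. Of 5 such names 3 fell, and their sum was 103910 and 98253 in KD control and 52931 and 66263 in KD Zscan4. MMETn-int, their internal part, held most of the reads, with 80741 and 76379 in KD control and 40771 and 50597 in KD Zscan4, a log2 difference of -0.79 (SE 0.12, adjusted p = 2.8e-05 in limma), or -1.05 with TMM. Both knockdown libraries lay below both controls, and KD Zscan4 replicate 1 was the lower.

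The 187 names grouped as class II retroviruses and LTRs had a median of 0.28, with 15 rises and 7 falls as deposited and 1 rise and 9 falls with TMM. Among their falls, RLTR13G fell from 7857 and 7263 in KD control to 3781 and 4773 in KD Zscan4 (-0.83). ERVB4_1C-LTR_Mm fell from 4530 and 4225 to 2095 and 2878 (-0.83). ERVB4_2-I_MM-int, a far lower name of the same group, fell by 1.03, and LTRIS_Mm, a class I name, by 0.88. The ORR1 and MT names had 4 and 5 rises and no fall as deposited, and 2 rises and 1 fall and no rise and 1 fall with TMM. IAPEY4_I-int fell from 202 and 199 to 111 and 130 (-0.73) and IAPEY4_LTR by 0.83, while the 22 names of intracisternal A particles had a median of 0.17 and no other fall. In RLTR13G, ERVB4_1C-LTR_Mm and IAPEY4_I-int the groups did not overlap, and KD Zscan4 replicate 1 was again the lower knockdown library.

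The 6 names of young mouse LINE-1 elements, L1Md, had a median of -0.26, and 2 of them fell. Their sum was 10932 and 9676 in KD control and 7445 and 10473 in KD Zscan4, so the groups overlapped. L1Md_T gave 3723 and 3229 in KD control and 2094 and 2999 in KD Zscan4 (-0.47). L1Md_Gf, a minor name of the family, gave 90.6 and 87.9 in KD control and 43.6 and 51.2 in KD Zscan4 (-0.90, SE 0.22, adjusted p = 0.012 in limma), and its groups did not overlap. SINEs sat near the median name: the 15 B1 names had a median of 0.23 with 2 rises, and the 3 B2 names one of 0.24 with none. Among rises, ORR1C2-int gave 36.8 and 29.3 in KD control and 77.0 and 76.4 in KD Zscan4 (1.20, adjusted p = 0.0024 in limma). It was the only one of the 8 rises named by rule that passed with TMM (0.95, adjusted p = 0.026 in limma). MER67B (1.93), MLTR13 (1.91), Tigger18a (1.73), MER77B (1.43), MLT1H1 (1.11), RLTR31C_MM (1.08) and RLTR17D_Mm (1.04) had at most 73.5 in any library and did not pass with TMM.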

How the data were processed

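The 4 knockdown libraries are mRNA-seq libraries. Per the submitters' processing notes, cutadapt, HISAT2, featureCounts and DESeq2 were used with the mouse build mm10; versions and the strand setting are not given in the sources used here. The deposited gene and repeat values are a signal that the authors made by dividing read counts by 1 size factor per library, since 100% of values came out as whole reads within 0.01. Depth was 17392177 to 21762116 per library over genes.

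Log2(value + 1) was tested with limma 3.58.1 (trended variance, R 4.3.3), KD Zscan4 against KD control, with Benjamini-Hochberg adjustment over all genes or all repeat names and a false discovery rate of 0.05. A second fit first subtracted the chromosome 1 median from chromosome 1 genes. With 2 libraries a group an exact permutation test cannot reach 0.05, so no such test is given. Alternatives were DESeq2 1.42.0 and edgeR 4.0.16 on recovered reads, voom, TMM factors, pseudocounts of 0.5 and 5, a minimum mean of 20, a replicate block and leaving out each library. GENCODE M21 gave names and coordinates for 17913 of 17938 gene identifiers. Promoters came from RefSeq (GRCm38.p6). Scripts were tested on simulated data.

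Genes were named by rule: the 15 largest centred rises and falls with a mean of at least 20 and groups that do not overlap, up to 4 passing members of each list, 6 genes each way on chromosome 1 and 8 repeat names each way. The mean is over all 4 libraries, so a gene low in 1 group can reach it through the other. Further genes were chosen after their values were seen. The members and lists were chosen with earlier results of these data known. A set of 130 listed symbols already described from these data, such as Zscan4a to Zscan4f and 2-cell genes but not the Zscan4 pseudogenes, was left out of the naming but not of the counts, so a largest change named here is the largest among the remaining symbols.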

Additional observations from a re-analysis of the deposited data

How the results depend on the processing

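With chromosome 1 centred, 5 named genes turned below 0: Mcm3 (-0.16), Fzd5 (-0.21), Fzd7 (-0.36), Slc30a1 (-0.0104) and Exo1 (-0.00695). DESeq2 called 4141 genes in place of 6403. Leaving out 1 library gave 4416 to 6087 called genes, 3962 to 5698 centred (3962 without KD control replicate 2) and a chromosome 1 median of 0.526 to 0.541. Calls of repeat names, 68 as deposited, numbered 34 with TMM factors, 39 with the median-of-ratios scaling of DESeq2 over the repeats, 40 with a replicate block and 12 to 166 when 1 library was left out. The replicate numbers did not pair the libraries (r = -0.06 over 14554 genes), and with them as a replicate block 6924 genes passed, 6531 centred. Over named genes, repeats and summaries, 3588 comparisons with an alternative kept direction and call, 170 lost the call, 8 gained it and 5 reversed. DESeq2 lost the call of 30 of 299 named genes and edgeR of none. Low counts limit the smallest Hox and repeat levels, and 2 libraries a group limit every value.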
